A study of Mus musculus with 7 samples.

Results

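The endoplasmic reticulum (ER) is where secreted and membrane proteins are threaded through the translocon, folded by chaperones, given disulfide bonds and, if they fail to fold, passed to ER-associated degradation (ERAD). When unfolded chains build up, the sensors ATF6, IRE1 (encoded by Ern1) and PERK start the unfolded protein response, and the spliced form of XBP1 and cleaved ATF6 switch on the genes of this machinery. In muscle fibres the ER is continuous with the sarcoplasmic reticulum, the calcium store, and several of its chaperones bind calcium.

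The genes described here are 34 genes of ER folding and quality control, chosen by symbol out of 19938 genes that the array names by a single symbol. Of these, 33 were found under the listed symbol, and the oxidase gene listed as Ero1l was found under Ero1a, of which Ero1l is a synonym. For a gene with several rows on the array, the row with the highest mean log2 intensity was used. All 34 reached the median of all rows on every one of the 7 arrays, so none entered through a day on which it was high. In all, 12102 genes passed the filter, which asked for that median on at least 1 array.

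The samples came from the left plantaris, a fast calf muscle, of male C57BL/6J mice aged 5 months whose hind limbs had been unloaded by suspension for 2 weeks. Muscle was collected when suspension ended (d0, which serves as control) and after 1, 3, 5, 7, 10 and 14 days of renewed loading. Each of the 7 time points is a pool of RNA from 6 animals on 1 array (Affymetrix Mouse Gene 1.0 ST), so animals were not measured singly and no group has replicates. All groups had been suspended; muscle that was never suspended was not analysed here. A ratio of 2 days therefore has neither an error nor a p-value, and precision is limited by how few arrays there are. Values are intensities on a linear scale, and levels of different genes are not compared, since each row has probes of its own.

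Array medians lay between 128.1 and 131.8. The d0 array stood apart, with a mean Spearman correlation over all rows of 0.972 with the other arrays, against 0.984 to 0.989 for the others. By mean Pearson correlation over kept genes, d0 (0.986) and d1 (0.987) both lay below the rest (0.989 to 0.992). With 1 array a day, an effect of the d1 array and one of day 1 cannot be told apart. On the log2 scale the median ratio of all kept genes to d0 ran from 0.05 (d5) to 0.10 (d1). The 6 ratios to d0 share that array, so values without it are given beside them. The 12 muscle fibre markers on the array, among them Acta1 and Ckm, were above the array median on all 7 arrays.

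After 1 day of loading, transcripts of the ER folding machinery were higher than at d0 across the whole set. All 34 genes lay above d0 at d1, against 70.9% of all genes kept, and 11 were at least 1.5-fold higher, against 3.45% of all genes. None reached 2-fold at d1, which 0.653% of all genes did. The median log2 ratio of the 34 was 0.38, against 0.10 for all genes, and Edem2 and Sel1l, both at 0.09, lay below the median of all genes. The genes past 1.5-fold were the chaperones Hsp90b1, Manf, Hspa5, Sdf2l1 and Hyou1, the disulfide isomerases Pdia3, Pdia6 and Pdia4, the transcription factor Xbp1, the J protein Dnajb9 and the ERAD lectin Edem1. Canx lay just outside at 1.497-fold and Hyou1 just inside at 1.55-fold.

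The d1 array was also the high one with d0 set aside, by smaller ratios. In 30 of the 34 genes d1 was the highest of the 7 arrays, against 28.6% of all genes kept. Leaving d0 out could not change that count, since no gene of the set was highest at d0. A gene highest at d1 is also above d3 and d14, so the next counts partly repeat this one. From d1 to d3, 31 of the 34 genes were lower at d3, against 54.2% of all genes, with a median change of -0.22. Set against d14 in place of d0, 33 of 34 were above it at d1, against 50.8% of all genes, and the median was 0.21, against 0.0029 for all genes. With d14 as the base, 5 genes passed 1.5-fold at d1, against 1.61% of all genes: Hspa5, Hsp90b1, Manf, Dnajb9 and Xbp1.

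**Figure D1:**
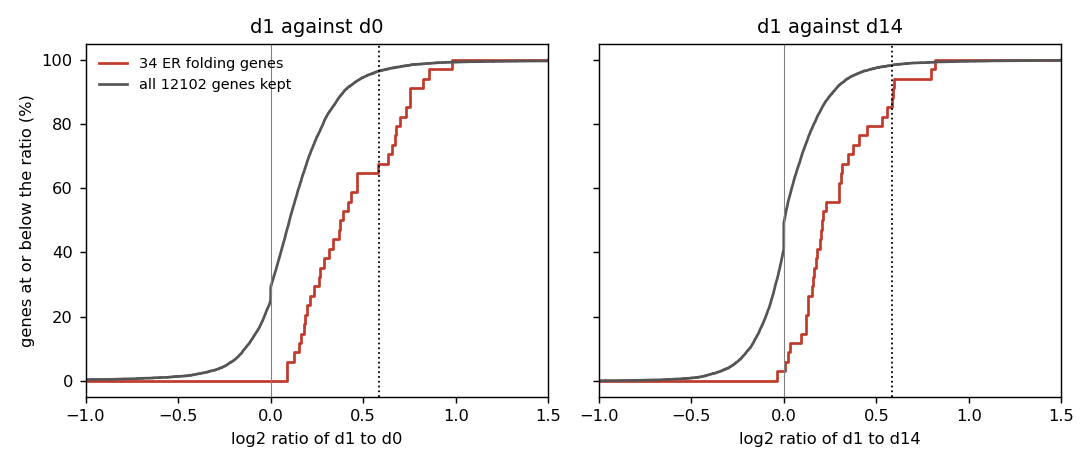
Cumulative share of genes (vertical axis, percent) against the log2 ratio of d1 to d0 (left) and of d1 to d14 (right), for the 34 ER folding genes and for all 12102 genes kept; the dotted line marks 1.5-fold. The 34 genes lie to the right of all genes in both panels, with medians of 0.38 and 0.21.

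Hspa5 encodes BiP, the Hsp70 chaperone of the ER that also holds the stress sensors inactive. Its intensity was 1711 on d0, 2780.3 on d1, 1658 on d3, 1685 on d5, 1788 on d7, 1701 on d10 and 1576 on d14. The d1 array alone was high, 1.62-fold above d0 and 1.76-fold above d14, and the other 6 values lay close together. Hsp90b1 encodes GRP94, the Hsp90 of the ER, which folds integrins and Toll-like receptors among others. Its intensity was 959 on d0, 1891 on d1, 1215 on d3, 1115 on d5, 1105 on d7, 1125 on d10 and 1091 on d14. It had the highest ratio of the set at d1, 1.97-fold (log2 0.98), and ranked 83rd of the 12102 genes by that ratio. All later days stayed above d0 by 0.19 to 0.34.

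The promoters of these genes are where the unfolded protein response is read, and the windows of Hspa5 and Hsp90b1 show its element, from RefSeq (GRCm38.p6), with 250 bases before and 50 after the gene's start, on the gene's strand. Capitals mark the fixed letters of the ER stress response element (ERSE, CCAAT and CCACG with 9 bases between them, on either strand) and, in Hspa5, also a match to TGACGTG, the core of the unfolded protein response element. Herpud1 is shown for the shorter form, ERSE-II (ATTGG and CCACG with 1 base between them, on either strand).
Hspa5, chr2:34771840-34772139, plus strand: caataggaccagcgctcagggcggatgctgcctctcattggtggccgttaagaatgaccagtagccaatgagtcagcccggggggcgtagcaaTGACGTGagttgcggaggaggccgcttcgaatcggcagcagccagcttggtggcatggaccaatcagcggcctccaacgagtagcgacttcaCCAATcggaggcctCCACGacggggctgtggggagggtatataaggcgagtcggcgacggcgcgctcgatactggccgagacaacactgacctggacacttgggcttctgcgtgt
Hsp90b1, chr10:86705395-86705694, minus strand: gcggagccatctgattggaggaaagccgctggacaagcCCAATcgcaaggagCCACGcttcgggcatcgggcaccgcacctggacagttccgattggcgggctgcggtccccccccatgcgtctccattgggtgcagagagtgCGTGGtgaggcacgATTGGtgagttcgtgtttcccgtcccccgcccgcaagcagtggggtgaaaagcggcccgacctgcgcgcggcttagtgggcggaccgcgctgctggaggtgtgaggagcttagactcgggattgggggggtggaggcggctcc
Herpud1, chr8:94386179-94386478, plus strand: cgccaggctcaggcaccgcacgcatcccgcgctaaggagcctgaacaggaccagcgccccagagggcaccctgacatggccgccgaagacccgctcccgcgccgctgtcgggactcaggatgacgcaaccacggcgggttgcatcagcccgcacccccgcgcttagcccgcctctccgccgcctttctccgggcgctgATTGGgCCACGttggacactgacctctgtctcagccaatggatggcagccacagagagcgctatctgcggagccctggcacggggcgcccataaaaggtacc

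A window was available for 29 of the 34 genes, with more than 1 for 3 of them, and not for Hyou1, Manf, Atf6, Derl1 and Sec61a1. The ERSE letters were found in 8 of the 29, against 0.156% of the 9642 kept genes with a window and 0.119% of all 32851 windows. ERSE-II was found in 2 of the 29, against 0.083% of kept genes and 0.0365% of all windows, and TGACGTG in 2 (Hspa5 and Txndc5), against 3.3% and 2.01%. Read on the strand that carries CCAAT, the ERSE sites were as follows, with the spacer in lower case, to show how far the spacer differs while both ends are fixed.
Hspa5, chr2:34772025-34772043: CCAATcggaggcctCCACG
Hsp90b1, distal, chr10:86705638-86705656: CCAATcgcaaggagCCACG
Hsp90b1, proximal, chr10:86705533-86705551: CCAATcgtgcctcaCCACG
Pdia6, chr12:17266491-17266509: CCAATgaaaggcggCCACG
Canx, chr11:50325800-50325818: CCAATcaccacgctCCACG
Creld2, chr15:88819520-88819538: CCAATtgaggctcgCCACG
Calr, chr8:84847075-84847093: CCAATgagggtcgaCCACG
Dnajc3, chr14:118937827-118937845: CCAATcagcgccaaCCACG
Syvn1, chr19:6046532-6046550: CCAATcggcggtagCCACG

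The distal Hsp90b1, Canx and Creld2 sites read on the minus strand of the genome and the other 6 on the plus strand. The sites ended between 26 (Syvn1) and 194 bases (Hsp90b1, distal) before the start. A match is a description of letters in this window, and Xbp1 and Pdia4, for instance, had no exact match. The 10 genes with ERSE or ERSE-II had a median log2 ratio of 0.42 at d1, with 3 at least 1.5-fold higher, and the 19 with neither had one of 0.37, with 6. Of all genes kept, 3.45% were at least 1.5-fold higher at d1. Against d14, the medians of the 2 groups at d1 were 0.30 and 0.18, in the same order. At d3 against d0 they were 0.086 and 0.18. Outside the set, 7 kept genes held the ERSE letters, namely Acacb, Adcy3, Alg12, Derl3, Pan2, Spats2l and Zfp57, chosen by this match after values were seen. None of them was 1.5-fold higher at d1, against 3.45% of all genes kept, or had its highest value there, against 28.6%. With only 7 genes these counts say little. Their ratios at d1 ran from -0.07 (Pan2) to 0.28 (Alg12).

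The remaining chaperones fell into a brief and a lasting pattern. Manf, a secreted and ER-resident partner of BiP, had an intensity of 184 on d0, 310.1 on d1, 209 on d3, 224 on d5, 218 on d7, 212 on d10 and 205 on d14. Only d1 was far from the rest, at 1.69-fold above d0 and 1.51-fold above d14. Hyou1 (GRP170), the nucleotide exchange factor of BiP, had 219.7 on d0, 340.5 on d1, 274 on d3, 265 on d5, 309 on d7, and 274 on both d10 and d14. Sdf2l1, which works with BiP and ER J proteins, had 181 on d0, 289.8 on d1, 257 on d3, 261 on d5, 278 on d7, 242 on d10 and 257 on d14. Its 6 loaded days lay together above d0, so its ratio at d1 was 0.68 against d0 and 0.18 against d14.

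The calcium-binding lectins Calr and Canx, which hold newly glycosylated proteins, differed in size. Canx had an intensity of 2662 on d0, 3985 on d1, 3497 on d3, 3176 on d5, 3394 on d7, 3171 on d10 and 3078 on d14. Calr had 1873 at d0, 2433 at d1 and 1981 to 2016 on the 5 later days, a log2 ratio of 0.38 at d1. Creld2, an ER stress-induced protein with isomerase activity, stood at 0.47 at d1 and at 0.16 to 0.19 afterwards. Among the 8 chaperones 5 passed 1.5-fold at d1, against 3.45% of all genes, with a median of 0.66.

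**Figure D2:**
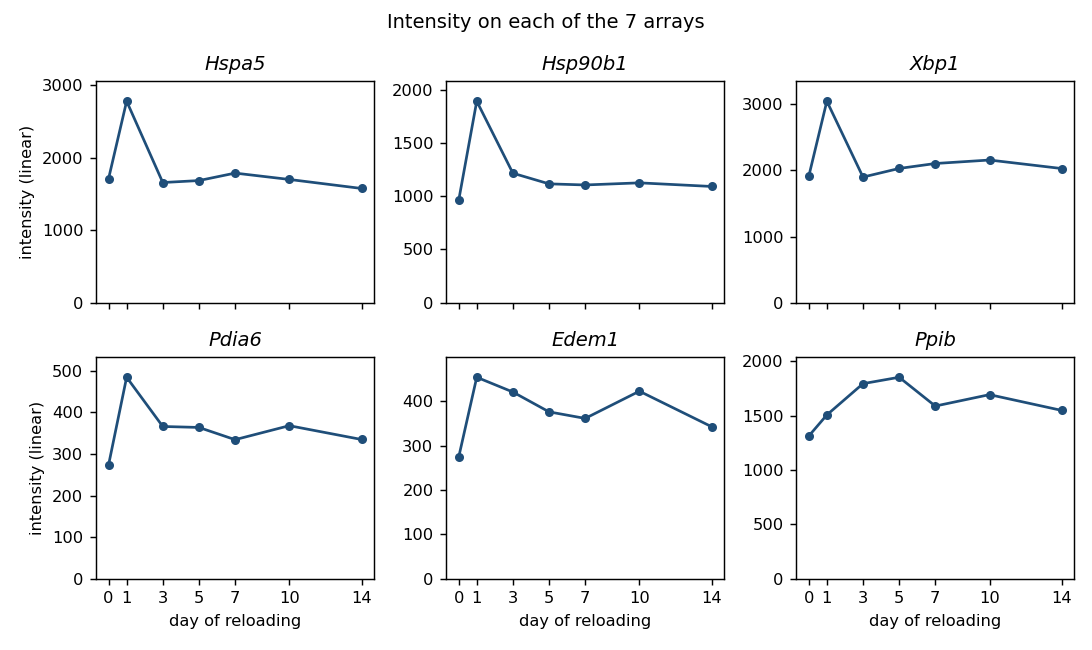
Intensity (linear, vertical axes from 0) on each of the 7 arrays against the day of reloading for 6 of the genes; each point is 1 array of pooled RNA, with no error. Hspa5 and Xbp1 are high on d1 only, Hsp90b1 and Pdia6 keep part of the difference, Edem1 declines slowly with a second high value on d10, and Ppib is highest on d5.

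Of the 7 genes of disulfide bond formation, 3 passed 1.5-fold on d1, against 3.45% of all genes. All 7 stayed above d0 on all 6 days, P4hb by only 0.01 to 0.09 after d1. Among all genes kept, d0 was the lowest array in 39.4%. Pdia3 (ERp57), the isomerase that works on proteins held by calnexin and calreticulin, had an intensity of 607 on d0, 1098 on d1, 804 on d3, 814 on d5, 675 on d7, 923 on d10 and 804 on d14. The d1 value was 1.81-fold above d0, and d10 was the second highest at 1.52-fold. Pdia6 (P5), which associates with BiP, had 274 on d0, 484 on d1, 366 on d3, 364 on d5, 334 on d7, 368 on d10 and 335 on d14. Pdia4 (ERp72) had 372 on d0, 628 on d1, 445 on d3, 425 on d5, 396 on d7, 485 on d10 and 427 on d14. A second Pdia4 row, at 47.5 on d0 and 42.2 on d1, lay below the array medians, and with the mean of both rows the ratio at d1 was 0.29 in place of 0.76.

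The other disulfide genes moved less. P4hb, the abundant disulfide isomerase that is also the beta subunit of collagen prolyl 4-hydroxylase, had 1301 at d0, 1618 at d1 and 1314 to 1382 afterwards. Txndc5 (ERp46) stood at 0.37 at d1, and Ero1a, the oxidase that recharges the isomerases, at 0.26. Pdia5 had 193 at d1 and 174 at d0, and its values on the 6 loaded days spanned 191 to 197.

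The prolyl isomerase Ppib had a course of its own. This gene encodes cyclophilin B, which acts with the prolyl 3-hydroxylase complex on collagen chains. Its intensity was 1313 on d0, 1508 on d1, 1795 on d3, 1854 on d5, 1589 on d7, 1694 on d10 and 1549 on d14. The highest values were at d3 and d5, and d1 was the lowest of the 6 loaded days. Over the 7 arrays its log2 values had a Pearson correlation of 0.13 with the mean of the other 33 genes, the lowest of the set, given as a description. The other prolyl isomerase, Fkbp2, had 237 at d1, 177 at d0 and 207 on each of the 5 later days.

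**Figure D3:**
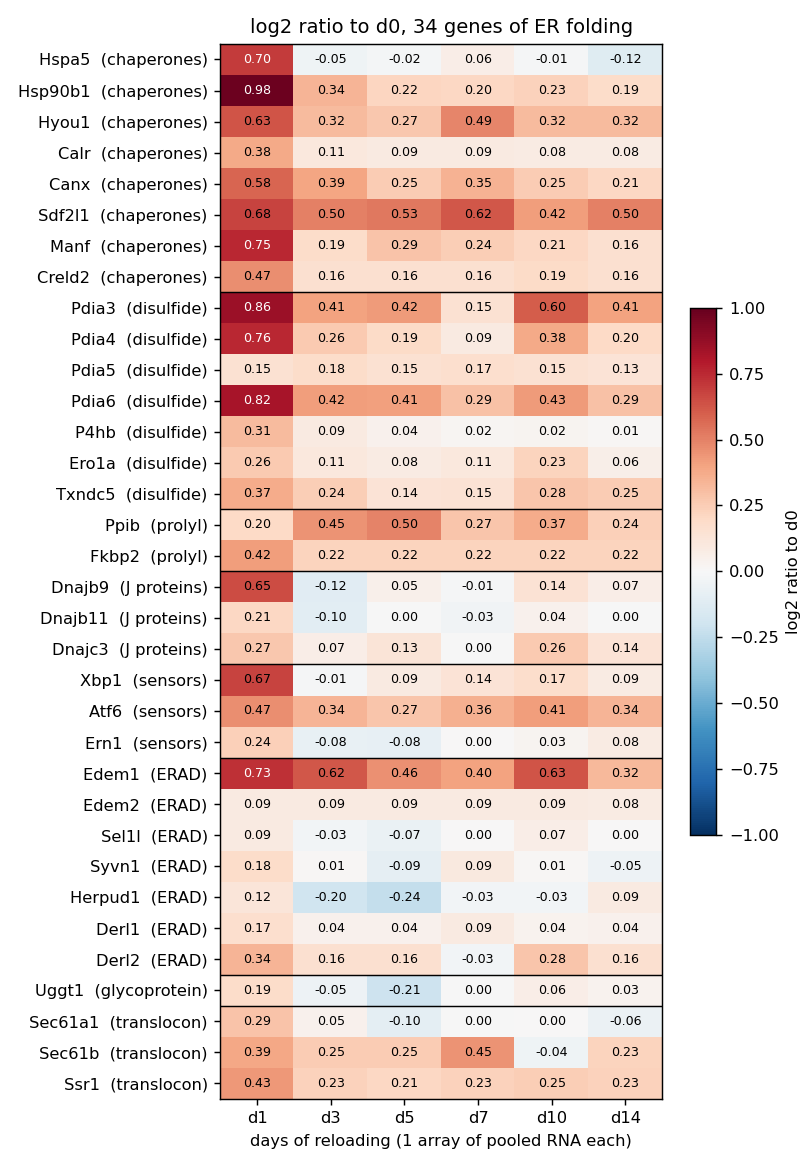
Log2 ratio to d0 of the 34 genes (rows, grouped by role) on the 6 loaded days (columns), each cell 1 array against the d0 array. The d1 column is positive throughout, from 0.09 (Edem2) to 0.98 (Hsp90b1), and the later columns are paler, with Sdf2l1, Edem1, Pdia3 and Ppib among the darker rows.

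Of the J proteins, which hand clients to BiP, Dnajb9 (ERdj4) had an intensity of 1219.6 on d0, 1920.1 on d1, 1126 on d3, 1264 on d5, 1209 on d7, 1344 on d10 and 1276 on d14. It was 1.57-fold above d0 at d1 and below d0 at d3. Dnajb11 (ERdj3) and Dnajc3 (p58IPK) stood at 0.21 and 0.27 on d1.

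Among the regulators, Xbp1 had an intensity of 1912 on d0, 3047 on d1, 1899.9 on d3, 2030.2 on d5, 2105 on d7, 2158 on d10 and 2029 on d14. As with Hspa5, d1 alone was high, at 1.59-fold above d0 and a log2 ratio of 0.59 to d14. The row measures total Xbp1 transcript, so splicing by IRE1 cannot be read from it. Atf6 had 576 at d0, 796 at d1, and between 697 and 768 on later days. Ern1, which encodes IRE1, had a log2 ratio of 0.24 at d1, and its later ratios spanned -0.08 to 0.08.

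Apart from Edem1, the ERAD genes had small ratios at d1. Edem1, a mannosidase-like protein that draws misfolded glycoproteins out of the folding cycle, had an intensity of 274 on d0, 454 on d1, 421 on d3, 376 on d5, 362 on d7, 423 on d10 and 343 on d14. All loaded days were above d0, and 2 later days, d3 and d10, were also past 1.5-fold. The related Edem2 stayed within 173 to 174 on the loaded days, against 163 at d0. The ubiquitin ligase Syvn1 (HRD1) and its partner Sel1l stood at 0.18 and 0.09 at d1, and the channel components Derl1 and Derl2 at 0.17 and 0.34. Herpud1, whose product organises the HRD1 complex and whose gene is a known stress target, had 2060.5 on d0, 2246 on d1, 1799 on d3, 1748 on d5, 2022 on both d7 and d10, and 2197 on d14. Its d1 value was only 0.12 above d0 and 0.03 above d14, while d3 and d5 were the low days of the course. Over the 7 ERAD genes the median on d1 was 0.17, against 0.66 for the 8 chaperones.

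Uggt1, the glucosyltransferase that sends unfolded glycoproteins back to calnexin, had 676 on d0, 769 on d1, 652 on d3, 584 on d5, 675 on d7, 706 on d10 and 692 on d14. In the translocon, Sec61a1, the pore subunit, had 1061 at d0, 1295 at d1 and 989.8 to 1096 later. Ssr1, of the translocon-associated complex, had 1494 at d1, 1105 at d0 and 1274 to 1312 later. Sec61b had 3 rows on the array that did not share a course. The row used had its highest value on d7 (329) and its lowest on d10 (234), whereas the other 2 rows were highest on d1 (98.2 against 88.2 on d0, and 169 against 154 on d0). Which of the 3 rows measures the Sec61b gene was not settled here, so each Sec61b value given is that of the brightest row only.

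How much of the d1 difference was still there on d3 varied among the 11 genes past 1.5-fold. Dnajb9, Hspa5 and Xbp1 were at or below d0 at d3, with log2 ratios of -0.12, -0.05 and -0.01. Manf kept 24.7% of its log2 difference, Pdia4 34.4%, Hsp90b1 34.8%, Pdia3 47.3%, Hyou1 50.2% and Pdia6 51.0%. Sdf2l1 kept 74.2% and Edem1 85.0%. Against d14, which leaves the d0 array out, Edem1 stood at 0.41 on d1 and 0.30 on d3, and Sdf2l1 at 0.18 on d1 and 0.00 on d3.

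From d3 on the set stayed slightly above d0. Its medians were 0.16 on d3, 0.15 on d5, 0.12 on d7, 0.20 on d10 and 0.15 on d14, against 0.07, 0.05, 0.08, 0.10 and 0.08 for all genes kept. The count at least 1.5-fold higher was 1 on d3, 0 on d5, 1 on d7, 2 on d10 and 0 on d14, where 1.65%, 1.36%, 1.74%, 2.28% and 0.678% of all genes were called. On none of these days did a gene of the set reach 2-fold, against 0.413%, 0.182%, 0.19%, 0.438% and 0.0661% of all genes. Those past 1.5-fold were Edem1 at d3, Sdf2l1 at d7, and Pdia3 and Edem1 at d10. Set against d14, the medians at d3, d5, d7 and d10 were 0.00, 0.00, 0.0084 and 0.045, and no gene of the set was at least 1.5-fold higher, against 0.719%, 0.248%, 0.116% and 0.645% of all genes. In 21 of the 34 genes d0 was the lowest array, against 39.4% of all genes. Whether that array or the suspended muscle itself was low cannot be told apart.

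Between d7 and d10 the set as a whole was close to all genes. Its median change was 0.03, against 0.02 for all genes, and 21 of 34 genes were higher at d10, against 56.4% of all genes. At the ends of that spread, Pdia3 was higher at d10 than at d7 by 0.45, Derl2 by 0.31, Pdia4 by 0.29, Dnajc3 by 0.27 and Edem1 by 0.23, while Sec61b was lower by 0.49. The summed intensity of 10 neutrophil markers, 9 of them kept by the filter, was 8543 at d10, against 2352 at d7. Their part in these values was not tested.

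Summed markers of several other cell types were also higher at d1 than at d0, though not all were highest at d1. The summed intensity of 11 macrophage markers was 4791 at d1, against 2933 at d0, 4455 at d3, 3864 at d5 and 2781 at d14. At d1 all 8 that passed the filter were above d0, led by Cd68 at 2.04. Neutrophil markers summed to 2586 at d1, against 1376 at d0 and 1678 at d14, and were higher at d3 (3983.5) and highest at d10 (8543). The 9 fibroblast markers summed to 14965 at d1, against 16065 at d0 and 16196 at d14, a sum mostly of Dcn, singled out after its values were seen. Without Dcn the other 8 summed to 5053 at d1, against 4713.5 at d0, and 6 of the 9 lay above d0 at d1, with a median log2 ratio of 0.12. Of 9 plasma and B cell markers, which mark cells rich in ER, 4 passed the filter. The summed level of all 9 was 972.5 at d1, against 926.7 at d0 and 1043.5 at d14, and was higher on every later day than at d1. The 6 endothelial markers summed to 4668.5 at d1, against 3886 at d0, 4983 at d3 and 4810 at d14. No marker had an intensity of 0. The part of these cells in the d1 result was not tested, and in pooled bulk RNA fewer cells of a type and less RNA per cell cannot be told apart.

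Lists of neighbouring parts of the secretory pathway had lower medians at d1 than the folding genes, by smaller margins against d14 than against d0. Lists were chosen with earlier results known, and genes in the set were left out of them. Among all genes kept, 3.45% were at least 1.5-fold higher at d1. Of 22 other ER folding genes 1 was at least 1.5-fold higher, Hspa13, an ER-associated Hsp70-like protein (0.71), with a list median of 0.19. Of 15 genes of the oligosaccharyltransferase and trimming enzymes 2 were, Magt1 (0.69) and Ostc (0.59), with a median of 0.27. Of 18 further ERAD genes 1 was, Ubxn4, which recruits the VCP ATPase to the ER (0.80 against d0, 0.81 against d14), with a list median of 0.17. Of 11 collagen folding genes, with a median of 0.21, 3 were, beside 11 of the 34 in the set. They were the prolyl 3-hydroxylase P3h2 (0.85), the collagen chaperone Serpinh1 (0.85) and P4ha1 (0.73). Against d14 these 3 stood at 0.49, 0.21 and 0.34, Magt1 at 0.41, Ostc at 0.34 and Hspa13 at 0.39, so none of them passed 1.5-fold there. The medians at d1 against d14 were 0.10 for other ER folding, 0.165 for oligosaccharyltransferase and trimming, 0.049 for further ERAD and 0.167 for collagen folding, beside 0.208 for the set.

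None of 18 genes of COPII vesicles and ER export, 19 of the translocon, signal recognition and signal peptidase, or 13 further stress regulators passed 1.5-fold at d1, against 3.45% of all genes. No gene in the lists of the secretory pathway was 1.5-fold lower. The share of all genes lower by that fold is not given here, so nothing is read from this count. Medians of the lists of 18, 19 and 13 genes were 0.22, 0.07 and 0.25 against d0, and 0.065, 0.062 and 0.12 against d14. The signal peptidase subunit Spcs3 stood at 0.49 against d0 and 0.70 against d14. Of the PERK arm, Ddit3 (CHOP) stood at 0.40 against d0 and 0.30 against d14, and Ppp1r15a (GADD34) at 0.45 and 0.39. Wfs1, an ER membrane protein, stood at 0.54 against d0. These genes are named for their large ratios at d1 and do not stand for the whole arm or list. The 13 regulators ran from -0.14 to 0.54 against d0 and from -0.44 to 0.39 against d14.

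The cytosolic and mitochondrial chaperones had larger differences on the same arrays. Of 22 genes 15 passed 1.5-fold at d1, against 3.45% of all genes, with a median of 0.82 against d0 and 0.56 against d14. The inducible Hsp70 gene Hspa1a (2.30), Hsph1 (1.76) and Hsp90aa1 (1.55) had the largest ratios of this list at d1, and its lowest ratio was -0.09. Of 12 genes of the calcium store of the sarcoplasmic reticulum, the median was -0.0007 at d1 and 1 was past 1.5-fold, Casq2 (0.74). None of the 29 ER genes with a promoter window held the letters of the heat shock element (GAA, TTC and GAA with 2 bases between each, on either strand). As only 0.57% of kept genes held them, their absence among 29 genes says little. Whether these letters mark the cytosolic chaperone genes was not tested.

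**Figure D4:**
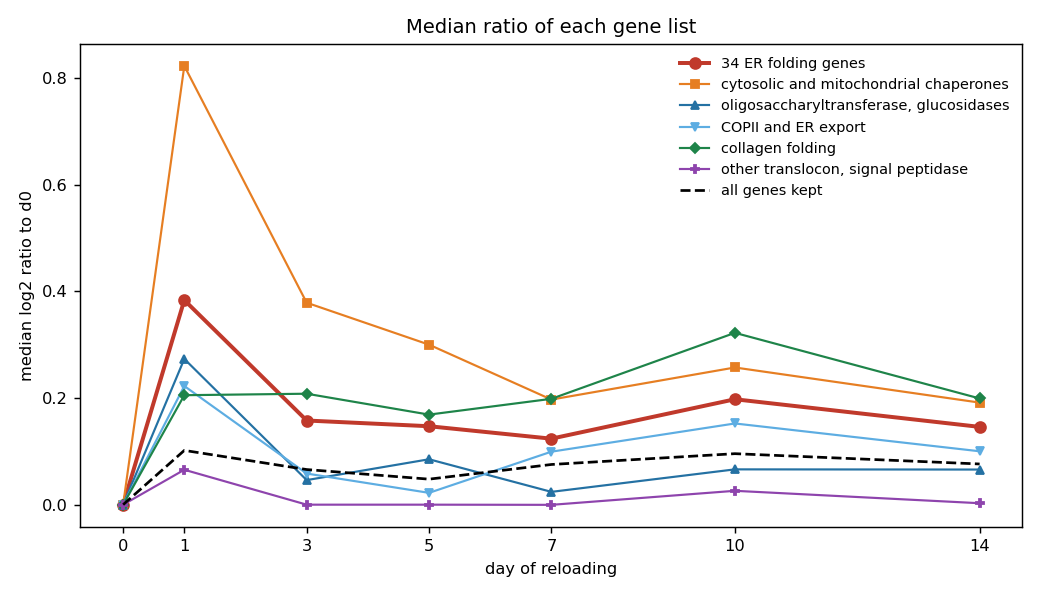
Median log2 ratio to d0 (vertical axis) of the 34 ER folding genes, of 5 related gene lists and of all genes kept, against the day of reloading; each point rests on 1 array a day. The ER folding genes reach 0.38 at d1, between the cytosolic and mitochondrial chaperones (0.82) and the other lists, and lie at 0.12 to 0.20 from d3 on.

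The genes outside the set whose course was most like the mean of the 34 over the 7 arrays were Slco5a1, Raver2, Aopep, Myot and Trib2, with Pearson correlations of 0.999, 0.997, 0.996, 0.996 and 0.996. These are descriptions over 7 arrays. Raver2 had the largest ratio of the 5 at d1 (0.80), and myotilin, the Z-disc protein encoded by Myot, had 0.17. Within the set, Creld2 was most like the mean of the other 33 genes (0.997).

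A straight trend over time was fitted with limma for all genes on log2(day + 1), the fit in which days serve as replicates of a line. Over d0 to d14, with limma p-values adjusted by Benjamini-Hochberg and a threshold of 0.05, 0 of the 34 genes rose and 0 fell (0% of all genes each), and at an unadjusted p of 0.05 the limma counts were also 0 and 0, against 9.19% and 1.45% of all genes. Over d1 to d14, 0 rose and 0 fell after adjustment, against 0.157% and 0.198% of all genes. At an unadjusted limma p of 0.05, 10 of the 34 fell and 0 rose, against 6.39% and 6.88%. Canx came nearest, with a limma adjusted p of 0.13 (slope -0.12 ± 0.026 SE per doubling of day + 1). Hsp90b1 had a slope of -0.25 (limma adjusted p 0.18) and Hspa5 one of -0.23 (limma adjusted p 0.25). Without the d1 array, 0 of the 34 fell at an unadjusted limma p of 0.05, against 266 of the 12102 genes. At the same p 2 of the 34 rose, against 706 of the 12102. The 10 falling slopes thus rest on that array.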

How the data were processed

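The authors deposited linear intensities, 1 per row and array. Partek is the tool listed, per the submitters' processing notes. Its version, the background correction, the normalization and the build are not stated in those sources. For RNA input, the label protocol states 250 ng of RNA and the design text 100 ng. Ratios are differences of log2 intensities, with a pseudocount of 0.

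The array has 35556 rows, and the platform annotation covers 23410, of which 21789 have 1 symbol. The members, the lists and the 1.5-fold threshold were chosen with earlier results of these data known. Named were all members, the 5 genes most like their mean course, and up to 4 genes of each list with the largest absolute ratio at d1; markers were named from their lists.

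Trends used limma 3.58.1 (lmFit, eBayes with intensity trend, two-sided, Benjamini-Hochberg over 12102 genes) in R 4.3.3. In data simulated for d1 to d14, 46%, 88%, 98% and 98% of 50 genes each with total log2 changes of 0.5, 1, 2 and 3 were recovered, with 7 false calls. Python 3.11.15, numpy 2.4.6, pandas 2.3.3 and matplotlib 3.10.9 did the rest. Alternatives covered normalization, filter, rows, reference, fold, pseudocount and left-out days.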

Additional observations from a re-analysis of the deposited data

How the results depend on the processing

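The counts at least 1.5-fold above d0 (11 on d1, 1 on d3, 0 on d5, 1 on d7, 2 on d10 and 0 on d14) moved most with the fold. With a lower threshold, a ratio of 5 to 4, they were 20, 8, 5, 6, 7 and 4, where 15.8%, 9.95%, 8.59%, 12.4%, 13.3% and 7.25% of all genes passed it, and at 2-fold 0 on every day. With the median ratio of all genes subtracted they were 7 at d1 and 0 at d3, d7 and d10. With d14 as the reference they were 5 at d1 and 0 at d3, d7 and d10, and with the mean of the other 6 arrays 4 at d1 and 0 on those days. The d7 count became 0 with a pseudocount of 16 and with the filter at percentile 75, which leaves 23 genes, and the d10 count 0 after quantile normalization. With d14 as the reference 1.61% of all genes passed at d1. For the other changes of reference, scale or filter the share of all genes is not given, so those counts stand alone. The median ratios (0.38, 0.16, 0.15, 0.12, 0.20 and 0.15) were 0.21, 0, 0, 0.0084 and 0.045 at d1 to d10 against d14. Against the mean of the other 6 arrays they were 0.24 on d1, -0.0061 on d3, -0.035 on d5, -0.020 on d7, 0.014 on d10 and -0.021 on d14. Why the settings differ was not tested. The d1 median stayed positive under every setting tried. The count of genes highest at d1, 30, had to stay at 30 without d0, since no gene of the set was highest at d0. That count was 27 after quantile normalization, 29 with equal array medians and 31 with the mean of the rows of a gene. Shares of all genes highest at d1 under these settings are not given here. The trend counts after adjustment stayed at 0 under every setting tried. The count that fell over d1 to d14 at an unadjusted limma p of 0.05, 10, did not stay. It was 1 with the day on a linear scale, 5 with the rank of the day and 12 without d3. Of the 12102 genes, 353, 467 and 838 fell under these settings, in the same order. No paired analysis was possible because each group is 1 pooled array. With 1 array a day, the error of a ratio is unknown.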

Other observations

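Many deposited values repeat exactly between arrays. A repeated value was found in 53.7% of the 35556 rows, in 55.5% of the 12102 genes kept and in 19 of the 34 ER folding genes (55.9%). Fkbp2 had the same intensity of 207 on all 5 arrays from d3 to d14, and Creld2 had 273 on 4 of those 5. Courses of such genes therefore take few distinct levels, 3 for Fkbp2 and 4 each for Creld2 and Edem2.

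The 2 rows of Dnajc3 held identical values on all 7 arrays and add no second measurement. The 3 rows of Sec61b carry the same symbol but different courses, with log2 ratios at d1 to d0 of 0.39 for the row used and 0.15 and 0.14 for the others.

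The 34 genes were closest between d5 and d14, with a median absolute log2 difference of 0.027, and farthest apart between d0 and d1, at 0.38. Between d1 and d3 it was 0.23, and between d3 and d5 0.043.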
